A study of Mus musculus with 18 samples.

Results

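A set of 10 genes with large or near on-off differences between WT and both offspring generations were described in ventral dentate granule cells, out of 34620 genes listed in the count tables. They were selected on the measured counts of these same libraries, with no threshold, for large differences of F1 and F2 from WT, so those differences are given as a description and without a test. The 5 genes above WT were Gm5619, Tpm3-rs7, Cyth4, Lefty1 and Serpina3m, and the 5 below WT were Gm5415, Lgals4, Tm6sf2, 1700001K19Rik and Gm15797. All 10 passed the filter on low counts that left 17421 genes for testing. Gm5619, Lefty1, Serpina3m and Gm15797 could pass it only through the groups in which they were high, so their passing carries no information.

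RNA-Seq was performed on the ventral granule cell layer, microdissected from cryosections of male Swiss Webster mice of 8 to 12 weeks, in 6 libraries. WT (2 libraries) came from a lineage with WT mothers and grandmothers. F1 (2 libraries) were genetically WT sons of mothers labelled 5HT1A-/+, which carry 1 disrupted copy of the serotonin 1A receptor gene, and the grandmaternal genotype was 5HT1A-/+ as well. F2 (2 libraries) were WT sons of F1 females and WT males, so that only the grandmother was 5HT1A-/+. The sons in all 3 groups were WT for the receptor, the labels name no treatment, and Swiss Webster is an outbred stock. How many animals entered a library is not given in the sources used here, and p-values measure only the spread between these libraries.

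Members of the set fall into several classes. A processed pseudogene or retrocopy is a spliced mRNA that was copied back into the genome, so it has no introns and resembles its parent gene closely. Many such copies are silent, and short reads can be assigned to them only at the bases at which they differ from the parent. Cytohesins activate ARF GTPases in membrane traffic, Lefty proteins are secreted antagonists of Nodal in left-right patterning, galectins bind sugars on glycoproteins, and serpins inhibit serine proteases.

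Gm5619 and Tpm3-rs7 each have a close relative from which their reads must be told apart, and stretches of 100 bases are shown for this reason. All are in the sense direction of the transcript, 5′ to 3′, from the mm9 genome and GENCODE M1 models, and capitals mark bases at which the pair differs. Gm5619 is read from chr9:85675488-85675587, minus strand, and differs from the mRNA of Rpl7a, a protein of the large ribosomal subunit, at 3 positions in this stretch.
Gm5619: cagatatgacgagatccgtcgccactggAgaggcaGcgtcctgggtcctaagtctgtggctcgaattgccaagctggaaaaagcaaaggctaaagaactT
Rpl7a: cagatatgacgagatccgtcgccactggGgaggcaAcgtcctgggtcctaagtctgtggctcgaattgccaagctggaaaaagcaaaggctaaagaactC
Tpm3-rs7 is read from chr14:113713925-113714024, plus strand, and differs from the mRNA of Tpm3, a tropomyosin that lies along actin filaments, at 3 positions.
Tpm3-rs7: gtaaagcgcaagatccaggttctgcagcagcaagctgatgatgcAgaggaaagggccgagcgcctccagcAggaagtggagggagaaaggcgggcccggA
Tpm3: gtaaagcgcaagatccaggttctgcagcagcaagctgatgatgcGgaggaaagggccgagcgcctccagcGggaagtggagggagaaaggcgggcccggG

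The share of a gene that a 50-base read can identify was measured as the percentage of its 50-base exon windows found at no other place in the genome or in spliced transcripts. For Gm5619 it was 17.9% (144 of 806 windows), with the parent gene Rpl7a and the copy Gm8226 tied as closest relatives, each 98.4% identical over 853 aligned bases. In all, 11 genes were at least 80% identical to Gm5619 over at least 500 bases. For Tpm3-rs7 it was 29.2% (601 of 2057 windows), with Tpm3 99.1% identical over 2108 bases. For Gm5415 it was 57.8%, with Gm9839 98.5% identical over 1437 bases. Lefty1 reached 80.6% and Serpina3m 81.5%, while Lgals4 reached 99.9% and Cyth4, Tm6sf2, 1700001K19Rik and Gm15797 reached 100%. Only uniquely aligned reads were counted, so reads from windows repeated in the genome are missing, most of all from the first 3 genes. For Tpm3-rs7, 837 windows occurred once in the genome, more than the 601 that are also absent from spliced transcripts of other genes. Reads from windows shared with spliced transcripts only may still be counted for it. Reads of a copy that were assigned to a gene would add to its count, and whether loss or gain weighs more was not tested.

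**Figure D1:**
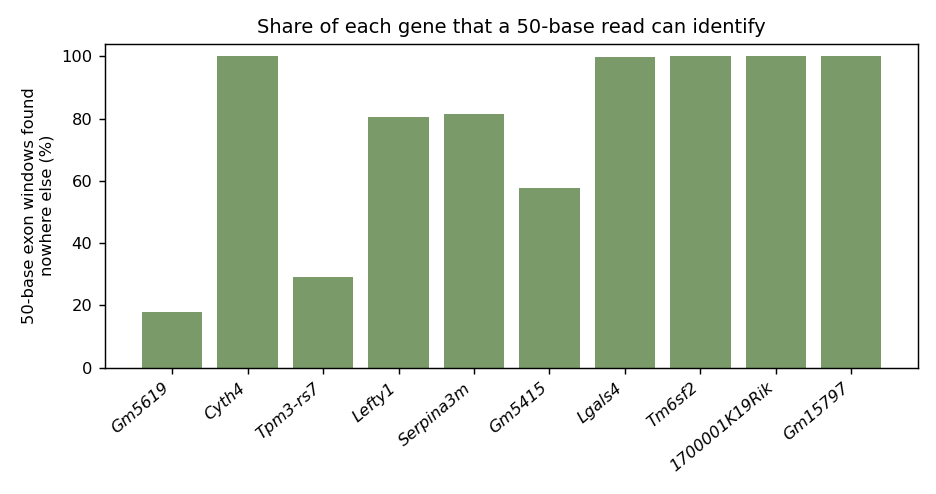
Percentage of 50-base exon windows (vertical axis, %) that occur at no other place in the genome or in spliced transcripts, for each of the 10 genes (bars). Gm5619 at 17.9% and Tpm3-rs7 at 29.2% are the lowest, and Gm5415 at 57.8% is the next.

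The libraries held 26358165 to 33727936 counts on genes, and the coefficient of variation between libraries of a group corresponding to the common dispersion was 10.6%. Of all entries of the count output, those set aside as not wholly within annotated exons were 12.6% to 14.2% in WT. They were 9.18% to 9.84% in F1 and 10.2% to 11.6% in F2, and their part in the differences below was not tested. The 6 granule cell markers, Prox1 among them, summed to 1089 to 1147 CPM (counts per 1000000 of TMM-adjusted library size) in WT, 948 to 1148 in F1 and 1274 to 1462 in F2, so both F2 libraries were above the others. None of the 6 passed the test in F1 or F2. Throughout, the threshold was an adjusted p under 0.01 by edgeR's exact test, over all 17421 tested genes. The 2 WT libraries served as the reference for both F1 and F2, so the comparisons with WT are not independent.

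All 4 F1 and F2 libraries lay above both WT libraries for 5 of the genes and below both for the other 5, by selection. Over all tested genes, 21.0% were above and 23.7% below in this sense. Among genes averaging 50 counts or more that lay wholly above WT, ordered by the smaller of the F1 and F2 log2 fold changes, Gm5619 ranked 1, Tpm3-rs7 4 and Cyth4 7 of 3345. Among those wholly below WT, Gm5415 ranked 1, Lgals4 3, Tm6sf2 12 and 1700001K19Rik 90 of 2938. The last of these was therefore far from the top on its F2 difference. Lefty1, Serpina3m and Gm15797 averaged between 5.17 and 13.7 counts over the 6 libraries and were below that minimum.

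**Figure D2:**
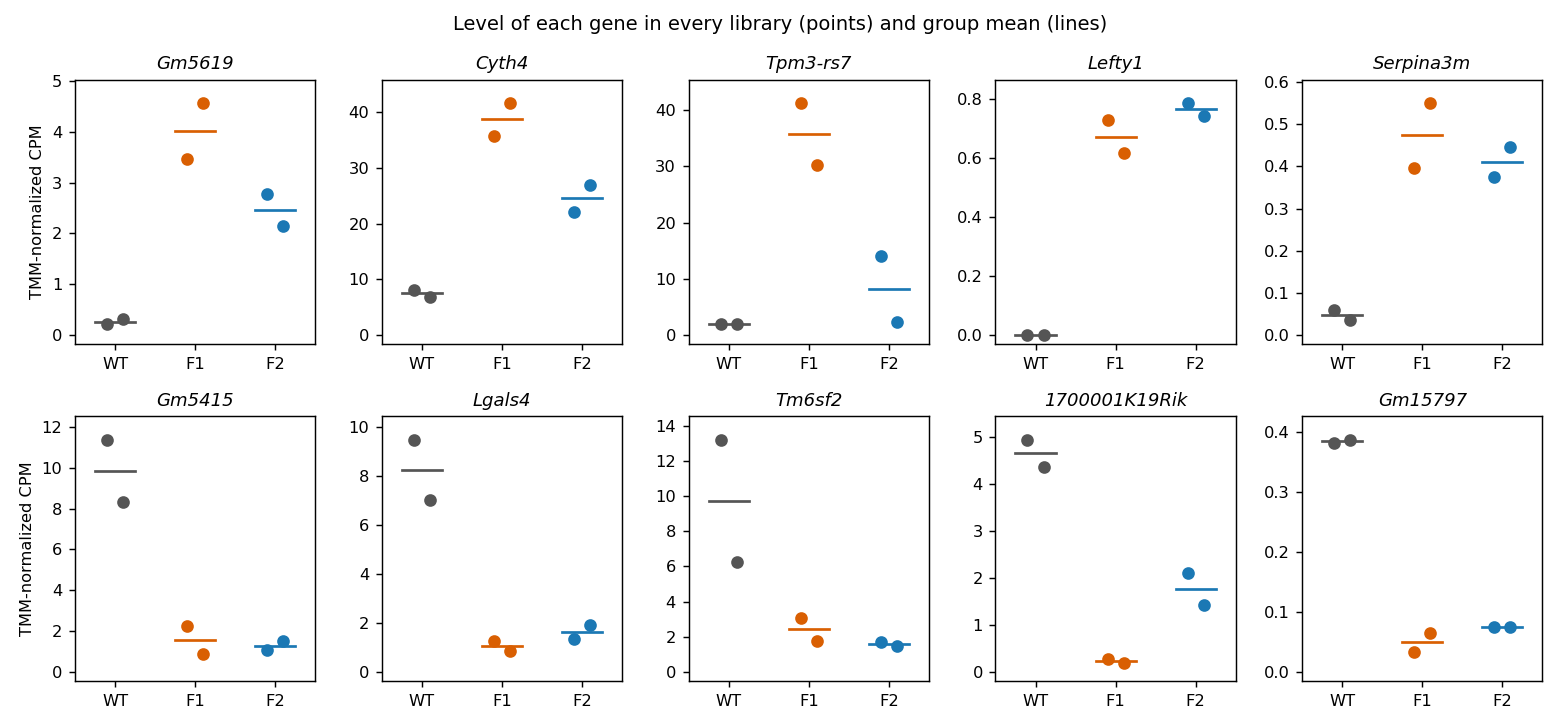
TMM-normalized CPM (vertical axes, linear, a separate scale for each gene) in each library (points) and the mean of each group (lines) for WT, F1 and F2. The top row holds the 5 genes above WT and the bottom row the 5 below; the F2 points of Tpm3-rs7, at 14.1 and 2.38 CPM, are the furthest apart within a group in relative terms.

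Gm5619, listed as a pseudogene by RefSeq and as protein coding by GENCODE M1, is a single exon of 855 bases on chromosome 9 from 85675425 to 85676279 (mm9), minus strand. It had 7 and 9 counts in WT, 105 and 141 in F1, and 74 and 58 in F2. In CPM these were 0.261 ± 0.0784 (SD, n = 2) in WT, 4.02 ± 0.778 in F1 and 2.46 ± 0.434 in F2. Every F1 library was above every F2 library, and both were well clear of WT. The log2 fold changes against WT were 3.94 (standard error 0.44) in F1 and 3.24 (standard error 0.45) in F2.

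Its parent Rpl7a went the other way in F1. Rpl7a had 168 ± 9.80 CPM in WT, 120 ± 25.8 in F1 and 151 ± 11.1 in F2. It fell by 0.49 on the log2 scale in F1 (adjusted p = 0.00693 by edgeR), and the F2 difference of -0.15 did not pass (adjusted p = 0.518 by edgeR). As a share of the Rpl7a counts of the same library, Gm5619 made up 0.128% and 0.181% in WT, 2.52% and 4.51% in F1, and 1.93% and 1.35% in F2. The Gm5619 count thus did not follow that of its parent. Of its other copies, Rpl7a-ps3 was higher in both generations, with 3 and 1 counts in WT, 17 and 33 in F1, and 11 and 13 in F2 (log2 fold changes of 3.59 and 2.73, adjusted p = 3.53e-06 and 0.00275 by edgeR). Rpl7a-ps5 and Gm8226, which were tested too, had log2 fold changes between -0.95 and -0.22 in F1 and F2, with adjusted p of 0.374 or more. As among these copies reads can be shared, the counts of each stay uncertain.

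Tpm3-rs7, again a pseudogene by RefSeq and protein coding by GENCODE M1, is a single exon of 2106 bases on chromosome 14 from 113713830 to 113715935, plus strand. It had 64 and 54 counts in WT and 1251 and 935 in F1. In F2 it had 378 counts in replicate 1 and 64 in replicate 2, or 14.1 and 2.38 CPM against 1.88 and 1.90 CPM in WT. The F2 difference from WT rested on replicate 1, since the second library was close to WT. The log2 fold change was 4.24 (standard error 0.50) in F1 and 2.12 (standard error 0.51) in F2. Without F2 replicate 1 the F2 value was 0.33, and without F2 replicate 2 it was 2.90.

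Tpm3 itself had 76.1 ± 7.92 CPM in WT, 70.5 ± 12.6 in F1 and 83.1 ± 10.1 in F2, and did not pass the test in F1 (log2 fold change -0.11, adjusted p = 0.66 by edgeR) or F2 (0.13, adjusted p = 0.604). Relative to Tpm3 counts, Tpm3-rs7 stood at 2.30% and 2.70% in WT, 67.0% and 38.1% in F1, and 15.7% and 3.13% in F2. None of the 3 other tropomyosin genes passed the test in either generation.

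**Figure D3:**
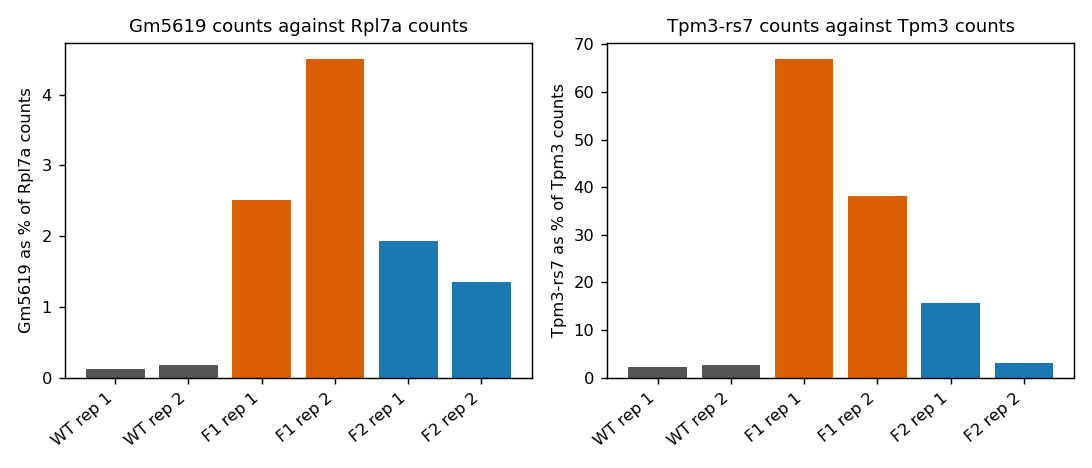
Counts of Gm5619 as a percentage of Rpl7a counts (left) and of Tpm3-rs7 as a percentage of Tpm3 counts (right) in each library (bars, linear axes from 0). The Tpm3-rs7 share runs from 2.30% in WT replicate 1 to 67.0% in F1 replicate 1, and F2 replicate 2, at 3.13%, stands next to WT.

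Cyth4 encodes a cytohesin, an exchange factor for ARF GTPases known mainly from blood cells and microglia. The gene lies on chromosome 15 from 78427477 to 78452449, plus strand, with 13 exon blocks. It had 8.12 and 6.86 CPM in WT, 35.8 and 41.7 in F1, and 22.1 and 27.0 in F2. Libraries of the 3 groups formed separate ranges with F1 the highest. The log2 fold changes were 2.37 (standard error 0.17) in F1 and 1.71 (standard error 0.17) in F2, or 5.17 and 3.28 times the WT mean.

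Microglia markers moved in the same direction but by less in the median. All 16 were detected, and they summed to 204 to 205 CPM in WT, 245 to 276 in F1 and 272 to 312 in F2. Of the 16, 2 were higher in F1 and 7 in F2, and none was lower, with median log2 fold changes of 0.34 and 0.48. Of all tested genes 3.77% were higher in F1 and 3.86% in F2. The sums were larger in F2 than in F1 in 3 of the 4 pairs of libraries, whereas Cyth4 was lower in F2 than in F1. Fcrls, a microglial Fc receptor-like gene, rose by 1.53 in F1 and 1.82 in F2 on the log2 scale (adjusted p = 1.02e-05 and 7.05e-08 by edgeR). Its F2 value was above the 1.71 of Cyth4, and its F1 value was below that of Cyth4. In bulk samples more or fewer cells of a type and more or less RNA per cell cannot be told apart, and the part of microglia in the Cyth4 difference was not tested.

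The other cytohesins did not follow Cyth4. Cyth1 fell by 0.41 in F1 and by 0.39 in F2 on the log2 scale (adjusted p = 0.00475 and 0.00759 by edgeR), from 170 ± 12.5 CPM in WT to 128 ± 4.16 and 130 ± 1.33. Cyth2 had log2 fold changes of -0.08 and -0.17, and Cyth3 of 0.30 and 0.26, with adjusted p of 0.109 or more. None of the 6 ARF GTPases listed, the substrates of cytohesins, passed the test in either generation, where 3.77% and 3.86% of all tested genes were higher. Arf1 came closest, with 0.36 in F1 and 0.25 in F2 (adjusted p = 0.0117 and 0.093 by edgeR). Arf3 had 0.33 and 0.30 (adjusted p = 0.0294 and 0.0483 by edgeR). Arf5 alone had negative values, at -0.04 and -0.22.

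Lefty1 encodes a secreted protein of the TGF-beta superfamily that inhibits Nodal signalling, and lies on chromosome 1 from 182865153 to 182868531, plus strand. It had 0 counts in both WT libraries, 22 and 19 in F1, and 21 and 20 in F2. The F1 and F2 libraries thus agreed within 3 counts of each other. A count of 0 allows up to 3 counts over the WT group, or 0.0481 CPM. In F1 the measured Lefty1 level, 0.671 ± 0.0784 CPM, was 13.9 times this limit. In F2 it was 0.764 ± 0.0302 CPM, or 15.9 times the limit. These ratios allow for counting error in WT only, not for that of the F1 and F2 counts. They are therefore no lower bounds, and the gene was chosen on this contrast.

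Other genes of the Nodal pathway were measured at very different levels. Of 15 listed, 9 were tested, and 2 were higher in F1 and 1 in F2, where 3.77% and 3.86% of all tested genes were. Acvr1b, a type I receptor of activin and Nodal, rose from 61.9 ± 1.86 CPM in WT to 83.1 ± 8.95 in F1 and 97.5 ± 1.46 in F2 (log2 fold changes of 0.43 and 0.66, adjusted p = 0.00459 and 2.76e-06 by edgeR). Acvr1c, a related receptor, rose in F1 by 0.74 (adjusted p = 1.92e-05 by edgeR) and had 0.36 in F2 (adjusted p = 0.0676). The ligand Nodal, with 1 to 12 counts a library, and the paralogue Lefty2, with 5 to 12, were too low to be tested. Lefty2 had 8 and 12 counts in WT, 5 and 9 in F1 and 6 and 9 in F2, so its groups overlapped.

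Serpina3m belongs to a cluster of clade A serpins on chromosome 12, where it lies from 105625374 to 105632467, plus strand. It had 2 and 1 counts in WT, 12 and 17 in F1, and 10 and 12 in F2. The ratio to WT was 9.86 in F1, with a 95% interval of 3.06 to 50.6 from counting alone, and 8.52 in F2, with an interval of 2.56 to 44.5. The groups did not overlap, by selection and on few counts. Since the gene was chosen on this contrast, the intervals describe counting error and test nothing.

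Several other genes of the cluster were higher in F1. Serpina3n, an acute-phase serpin expressed by reactive astrocytes, had 84.6 ± 16.2 CPM in WT, 165 ± 2.88 in F1 and 114 ± 6.49 in F2. It rose by 0.96 on the log2 scale in F1 (adjusted p = 4.3e-10 by edgeR), while its 0.43 in F2 missed the threshold (adjusted p = 0.014 by edgeR). Serpina3h had 1 and 0 counts in WT, 12 and 13 in F1, and 2 and 12 in F2, and passed in F1 (adjusted p = 0.000516 by edgeR) but not in F2 (adjusted p = 0.0151). Serpina3g passed in F1 (adjusted p = 0.0046 by edgeR), with 7 and 2 counts in WT and 11 and 38 in F1, so that 1 F1 library held most of its counts. Of 22 other clade A serpins listed, 7 were tested, 3 were higher in F1 (all tested genes 3.77%) and none passed in F2 (3.86%). The closest relative of Serpina3m, Serpina3k, was at 0 in all libraries.

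Astrocyte markers rose as well, but not in the same pattern over the generations as these genes. Of 5, 1 was higher in F1 and 3 in F2, beside 3.77% and 3.86% of all tested genes, and the sums ran from 794 to 890 CPM in WT, 947 to 1275 in F1 and 1087 to 1391 in F2. The markers had median log2 fold changes of 0.34 in F1 and 0.53 in F2 and more calls in F2, whereas the serpins listed had calls in F1 only. The part of astrocytes in the Serpina3 values was not tested.

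Lgals4 encodes galectin-4, a lectin abundant in gut epithelium, and lies on chromosome 7 from 29618813 to 29626722, plus strand. It had 9.50 and 7.04 CPM in WT, 1.25 and 0.842 in F1, and 1.35 and 1.89 in F2. Both generations lay far below WT, and F1 and F2 were in separate but adjoining ranges. The log2 fold changes were -2.98 (standard error 0.30) in F1 and -2.35 (standard error 0.29) in F2, so that the WT mean was 7.89 and 5.11 times those of F1 and F2. Of 8 markers of intestinal epithelium 2 were at 0 in all libraries. The 8 together summed to 1.09 to 1.41 CPM in WT, 1.25 to 1.62 in F1 and 1.15 to 1.57 in F2, so these markers stayed near 0 in every group. Of the other galectins, 5 were tested and none passed in F1 or F2, where 8.54% and 8.10% of all tested genes were lower and 3.77% and 3.86% higher. The median log2 fold change of the 5 was -0.39 in F1 and -0.07 in F2. The other galectins listed summed to 50.59 to 50.76 CPM in WT, 38.95 to 42.13 in F1 and 43.29 to 44.45 in F2, so the sums were below WT in both generations.

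Tm6sf2 encodes a membrane protein of the endoplasmic reticulum known for its role in the secretion of lipoproteins from liver, and lies on chromosome 8 from 72596823 to 72603965, plus strand. It had 13.2 and 6.27 CPM in WT, 3.07 and 1.75 in F1, and 1.68 and 1.45 in F2. The WT libraries differed 2.11-fold from each other, yet the lower of them was above every F1 and F2 library. The log2 fold changes were -2.02 (standard error 0.36) in F1 and -2.64 (standard error 0.37) in F2, and -1.38 and -1.99 without WT replicate 1. Hepatocyte markers summed to 0.352 to 1.00 CPM in WT, 0.648 to 0.726 in F1 and 0.411 to 0.743 in F2. Its paralogue Tm6sf1 and the other 3 EXPERA-domain genes did not pass the test, and neither did any of the 4 tested genes of lipoprotein assembly and lipid droplets, such as Mttp.

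Gm5415, an uncharacterized protein-coding gene, is a single exon of 3748 bases on chromosome 1 from 32600391 to 32604138, minus strand. It lies within Khdrbs2, which is on the opposite strand, with no exon in common. It had 11.4 and 8.31 CPM in WT, 2.24 and 0.842 in F1, and 1.05 and 1.48 in F2. The log2 fold changes were -2.67 (standard error 0.35) in F1 and -2.96 (standard error 0.36) in F2. The F1 value was -3.53 without F1 replicate 1 and -2.13 without F1 replicate 2. Ranges of F1 and F2 overlapped, and the F1 libraries differed 2.67-fold from each other.

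Of 5 near copies of Gm5415, 2 were lower as well, and the other 3 were too low to be tested, with no more than 1 count in any library. Gm9839, located 22.5 kb away, had 25 and 33 counts in WT, 4 and 5 in F1, and 4 and 2 in F2 (log2 fold changes of -2.64 and -3.02, adjusted p = 3.55e-05 and 1.47e-05 by edgeR). A further copy, 86.5% identical over 1811 bases, also passed in both generations (adjusted p = 5.78e-06 and 1.65e-05 by edgeR), with 24 and 22 counts in WT and no more than 4 in any F1 or F2 library. Reads may be shared between such copies, so these are not separate observations. The host gene Khdrbs2 did not pass, with differences from WT of -0.01 (F1, adjusted p = 0.983) and 0.34 (F2, adjusted p = 0.189 by edgeR) on the log2 scale.

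1700001K19Rik is a protein-coding gene of unknown function on chromosome 12 from 111905899 to 111920829, minus strand. It had 168 and 124 counts in WT, 8 and 6 in F1, and 56 and 38 in F2, or 4.65 ± 0.408, 0.229 ± 0.0493 and 1.75 ± 0.483 CPM. WT, F2 and F1 formed 3 separate ranges in this order. The log2 fold changes were -4.32 (standard error 0.46) in F1 and -1.41 (standard error 0.29) in F2, so that the WT mean was 20.3 times that of F1 and 2.66 times that of F2. Markers of male germ cells were nearly absent from all libraries, with sums of at most 0.246 CPM over 8 genes.

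Gm15797 is a non-coding transcript of 936 exonic bases on chromosome 16 from 18923166 to 18925750, plus strand, and shares 81 exonic bases with Hira, a histone chaperone gene on the same strand. It had 13 and 11 counts in WT, 1 and 2 in F1, and 2 and 2 in F2. The WT level was 7.84 times that of F1, with a 95% counting interval of 2.38 to 40.7. It was 5.16 times that of F2, with an interval of 1.77 to 20.5. As the gene was chosen on this contrast, the intervals test nothing. Hira had 56.0 ± 1.83 CPM in WT, 58.8 ± 4.27 in F1 and 62.9 ± 2.21 in F2, with adjusted p of 0.741 and 0.347 by edgeR.

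**Figure D4:**
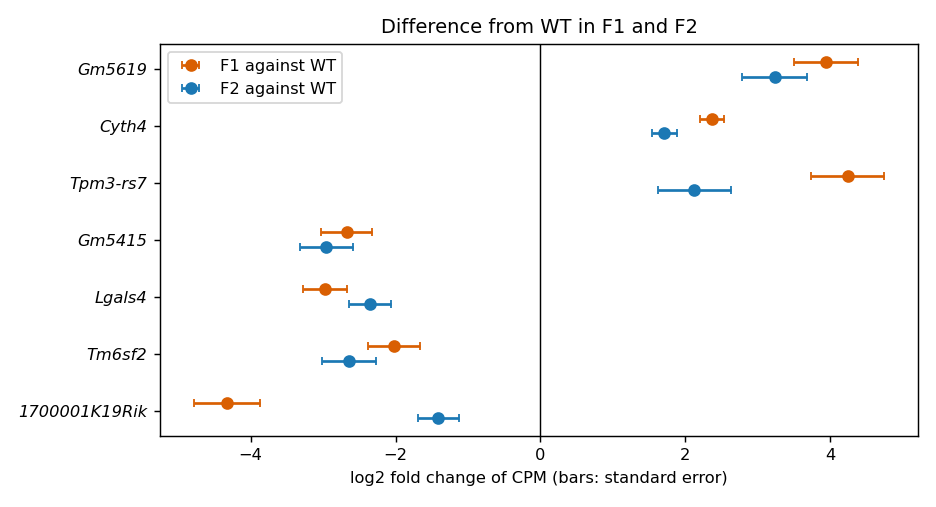
Log2 fold change of CPM against WT (horizontal axis) in F1 and F2 with standard errors (bars) for the 7 genes not limited by counts of 3 or fewer in a group. F1 lies further from 0 than F2 for Tpm3-rs7, at 4.24 and 2.12, and for 1700001K19Rik, at -4.32 and -1.41.

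Compared per length of exon, in RPKM (CPM divided by exon length in kb), the genes did not share a common level. In WT the mean level was highest for Tm6sf2, at 5.12 RPKM, followed by 1700001K19Rik at 4.88, Lgals4 at 3.49, Cyth4 at 2.68 and Gm5415 at 2.63. The spread of the WT libraries of Tm6sf2 spanned the levels of the next 2 genes in CPM per length, so this order is not firm. In F1 the highest were Tpm3-rs7 at 17.0 RPKM and Cyth4 at 13.9, and in F2 Cyth4 at 8.79. The level of Gm5619 in F1 was 4.70 RPKM. Levels of Gm5619, Tpm3-rs7 and Gm5415 are uncertain on this scale, as part of their length cannot be told from copies.

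F2 and F1 were compared directly. The genes were chosen on the counts of these same libraries, so the tests are not independent of the choice. Of the 10 genes, 3 differed between F2 and F1 at an adjusted p under 0.01. Of all tested genes 0.740% did, and nothing is read from the difference in share, since genes were chosen for extreme F1 and F2 values. Cyth4 was lower in F2 by 0.66 on the log2 scale (standard error 0.16, adjusted p = 0.0067 by edgeR's exact test). Tpm3-rs7 was lower in F2, with a log2 difference of -2.12 (standard error 0.49, adjusted p = 0.00568 by edgeR). 1700001K19Rik was higher in F2 by 2.91 (standard error 0.47, adjusted p = 2.65e-08 by edgeR). In each of the 3, F2 was nearer to WT than F1 was, and the ranges of the F1 and F2 libraries did not overlap.

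These calls depended on the test and the filter. The quasi-likelihood test in edgeR called none of the 3 (adjusted p of 0.0199 to 0.145), with 4 of the 10 genes at an unadjusted p under 0.05, and with the replicate number as a block it called 1700001K19Rik alone. DESeq2 called 2, and Tpm3-rs7 was not among them (adjusted p = 0.501 by DESeq2). Cyth4 was not called without a filter on low counts (adjusted p = 0.0151 by edgeR) or by a blocked likelihood-ratio test (adjusted p = 0.0137). It also did not pass without F1 replicate 2, F2 replicate 1 or F2 replicate 2, with log2 differences of -0.54, -0.52 and -0.81, and Tpm3-rs7 did not pass without F1 replicate 1, at -1.88. The call of 1700001K19Rik held without each library in turn, with differences of 2.60 to 3.17.

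The remaining 7 genes did not pass between F2 and F1. Gm5619 was the closest, with a log2 difference of -0.71 (standard error 0.28, adjusted p = 0.308 by edgeR). Lgals4 had 0.63 (standard error 0.33), Tm6sf2 -0.62 (standard error 0.38) and Gm5415 -0.28 (standard error 0.39), with adjusted p of 0.63 or more. Lefty1 had 0.19 (standard error 0.40) and Serpina3m -0.21 (standard error 0.49). At the depth of Gm15797, with 3 counts in F1 and 4 in F2, only a very large difference between F2 and F1 could have been detected.

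The families of the 10 genes, taken as 7 lists of relatives and pathway partners without the 10 themselves, contained 43 tested genes. In F1, 5 were higher and 1 lower, or 11.6% and 2.33%, where 3.77% of all tested genes were higher and 8.54% lower. In F2, 1 was higher and 1 lower, where 3.86% and 8.10% of all tested genes were. The median log2 fold change of the 43 was 0.10 in F1 and 0.22 in F2, and that of all tested genes was 0.01 and 0.00. Cyth1 and Acvr1b were the genes that passed in both. The F1 count of 6 became 2 without either WT library and 3 without F1 replicate 2 or F2 replicate 1, and the F2 count of 2 became 1 without WT replicate 2 or F2 replicate 2.

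Genes adjacent to the 10 were examined as up to 3 tested genes on each side, 60 in all. In F1, 6 were higher and 5 lower, 18.3% together, and in F2, 3 were higher and 4 lower, 11.7% together. Of all 17421 tested genes, 3.77% were higher and 8.54% lower in F1, 2144 genes together. In F2, 3.86% were higher and 8.10% lower, 2084 genes together. The neighbours' medians were 0.09 in F1 and 0.14 in F2. In both generations 6 of the 60 neighbours passed in the same direction, as did 1336 of the 17421 tested genes. Whether the neighbours differ from all tested genes in these shares was not tested. By edgeR's exact test none of the 60 passed in F2 without F2 replicate 2, where 18 had an unadjusted p under 0.05, and 3 passed without F2 replicate 1, 3 without WT replicate 1 and 4 without WT replicate 2. In F1, 6 passed without WT replicate 1.

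Beside Gm5619, Tpbg, a membrane glycoprotein gene 59.7 kb away, had 2.85 and 3.13 CPM in WT, 12.2 and 7.84 in F1, and 4.93 and 6.16 in F2 (log2 fold changes of 1.74 and 0.89, adjusted p = 3.51e-09 and 0.00834 by edgeR). On its other side Ibtk had 0.14 and 0.19. Tpbg and Gm5619 thus moved in the same direction. Around Cyth4, the nearest genes Rac2, at 0.37 and 0.18, and Elfn2, at 0.05 and 0.14, did not pass. Card10, 153 kb away, fell by 0.96 in F1 and by 0.50 in F2 (adjusted p = 3.4e-09 and 0.0047 by edgeR), opposite to Cyth4. Tpm3-rs7 stands apart, with its nearest tested genes, Slitrk5 and Mir17hg, 1631 and 1726 kb away and none of 6 called.

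The neighbours of Lgals4 moved in both directions. Ech1, an enzyme of fatty acid oxidation 1.55 kb from Lgals4, rose from 39.6 ± 2.65 CPM in WT to 74.2 ± 4.43 in F1 and 56.3 ± 2.30 in F2 (adjusted p = 1.85e-11 and 0.000608 by edgeR). Hnrnpl, an RNA-binding protein gene 11.5 kb away, fell by 0.43 and by 0.41 on the log2 scale (adjusted p = 0.0022 and 0.00387 by edgeR). On the other side Capn12 had -0.22 and 0.29 and did not pass.

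Near Tm6sf2, Hapln4, which encodes a link protein of perineuronal nets and lies 3.46 kb away, rose in F1 from 80.2 ± 11.1 to 137 ± 14.3 CPM (adjusted p = 1.06e-05 by edgeR) and was at 78.1 ± 14.1 CPM in F2 (adjusted p = 0.905). F2 and F1 differed for Hapln4 (log2 difference -0.81, adjusted p = 3.56e-05 by edgeR). Mau2, a cohesin loader gene 30.2 kb from Tm6sf2, fell by 0.56 and by 0.60 (adjusted p = 0.000263 and 0.000106 by edgeR), while Sugp1, the nearest, had -0.24 and -0.29 and did not pass. Hapln4 therefore went against Tm6sf2 in F1, and Mau2 went with it.

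Beside 1700001K19Rik, the predicted gene Gm17111, 2.28 kb away, was lower in F1 (log2 fold change -1.74, adjusted p = 0.00209 by edgeR) and had -1.35 in F2 (adjusted p = 0.0216). Dync1h1, a dynein heavy chain gene 0.744 kb away, and the chaperone gene Hsp90aa1, 7.99 kb away on the other side, did not pass in either generation. Near Lefty1, Tmem63a, 3.94 kb away, had log2 fold changes of -0.11 and -0.24 and did not pass, and Nvl, 155 kb away, rose in F2 by 0.61 (adjusted p = 0.000811 by edgeR). Beside Gm5415, its near copy Gm9839 passed as lower in both generations, as given above, and is not a separate observation. Prim2, on the far side of Gm5415, had -0.10 and 0.12. B3gnt5, 835 kb from Gm15797, did not pass, with 1.36 in F1 and 0.99 in F2 (adjusted p = 0.0144 and 0.13 by edgeR). For Serpina3m the neighbours that passed were the serpins Serpina3h, Serpina3g and Serpina3n, which were counted among the families as well.

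**Figure D5:**
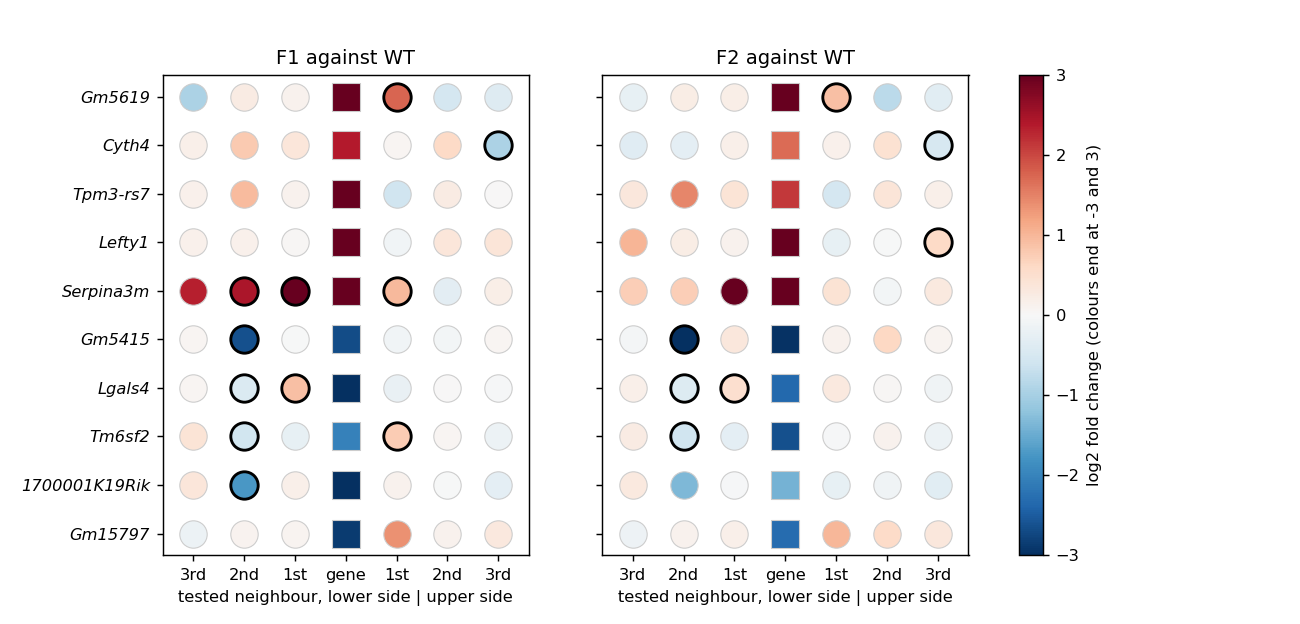
Log2 fold change against WT (colour, ending at -3 and 3) of each of the 10 genes (squares) and of the 3 nearest tested genes on each side (circles, in order of distance, not to scale) in F1 (left) and F2 (right). Black outlines mark neighbours that passed the test, 11 in F1 and 7 in F2; the row of Tpm3-rs7 has none.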

How the data were processed

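RNA-Seq counts of 6 libraries (WT, F1 and F2, 2 each, grouped by the labels) were analysed; 12 bisulfite samples were not analysed here. The authors sequenced single-end reads of 50 bp, aligned them to mm9 with TopHat (version 2.0.11 in the methods, 2.0.2 in the submitters' processing notes) and deposited counts per gene symbol made by HTSeq (intersection-strict), not normalized. Reads that aligned to several places, touched more than 1 gene or were not wholly within exons are therefore missing. Those aligned to several places made up 25.1% to 33.2% of all entries of the count output. A read may enter there more than once, so this is not a share of reads. The strand setting is not given in the sources used here, so overlapping genes on opposite strands may share reads.

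Counts were filtered by filterByExpr, scaled by TMM and compared by the exact test with tagwise dispersion in edgeR 4.0.16 (R 4.3.3), with Benjamini-Hochberg adjustment and a threshold of 0.01. The quasi-likelihood test without and with a replicate block, the likelihood-ratio test with it, DESeq2 1.42.0, other scalings and filters, a prior count of 2 in place of 0.125, leaving out each library, and a threshold of 0.05 were tried. In simulated counts the exact test recovered 100% of 200 genes changed by 2 on the log2 scale in F1, with 1.48% of calls false. Every simulated gene had the same common dispersion, and genes as low as Lefty1, Serpina3m and Gm15797 were not changed. The simulation therefore does not give the share of false calls in the real data. Replicates were not duplicates (chi-square per degree of freedom 18.5 to 23.0). Intervals of ratios are exact conditional binomial intervals at 95% and, like the limit of 3 counts for a count of 0, cover counting error only. Coverage of 95% does not hold for genes chosen on the same contrast.

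Positions come from GENCODE M1 on mm9, gene types also from RefSeq, and near copies from BLAST 2.17.0 over spliced transcripts. Plots used Python 3.11.15 and matplotlib 3.10.9. The 10 genes, the family and marker lists and the neighbours were chosen with earlier results of these data known. Genes named are the 10, list genes that passed in both comparisons or are closest relatives, neighbours that passed in either comparison or lie nearest, and the 6 most similar genes; other list genes were named after their values were seen. Some items that this rule covers are not reported here.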

Additional observations from a re-analysis of the deposited data

Results flagged for a closer look

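Of the 10 genes, 3 stood out because F2 and F1 differed by edgeR's exact test. Of all tested genes 0.740% did. Nothing is read from the difference in share, since the 10 were chosen for extreme F1 and F2 values. The quasi-likelihood test called none of the 3. The log2 difference, F2 minus F1, was -0.66 for Cyth4, -2.12 for Tpm3-rs7 and 2.91 for 1700001K19Rik. For Tpm3-rs7 the F2 libraries were at 14.1 and 2.38 CPM, and the difference was -1.34 without F2 replicate 2 and -3.91 without F2 replicate 1. For 1700001K19Rik both F2 libraries, at 2.09 and 1.41 CPM, lay between those of WT and F1.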

How the results depend on the processing

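The non-overlap of the 10 genes with WT held under TMM, RLE and total-count scaling. Leaving out a library could not end it, since the genes were selected on all libraries. No log2 fold change of the 10 genes against WT, and no called difference between F2 and F1, changed sign. Of the values against WT, 7 of 100 in F1 and 11 of 100 in F2 moved by more than the spread between libraries, most of them in Lefty1, Serpina3m and Gm15797, which rest on few counts. In F2 that spread was only 0.0106 for Gm15797 and 0.0504 for Lefty1, so that small shifts were counted as moves. With total counts Gm15797 in F2 went from -2.30 to -2.32, far within its standard error of 0.83. With a prior count of 2 the fitted value of Lefty1 was 3.51 in F1 and 3.59 in F2, so it is no bound. Replicate numbers did not pair the libraries (correlations of deviations -0.01 for WT and F1, -0.09 for WT and F2, -0.23 for F1 and F2).

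Calls over all genes were 2144 in F1, 2084 in F2 and 129 between F2 and F1. The quasi-likelihood test gave 1029, 997 and 2, the same with the replicate block 848, 758 and 9, and a threshold of 0.05 gave 3623, 3606 and 230. With the F2 numbers crossed in the block, chosen after seeing the data, 233 genes were called between F2 and F1. For the 10 genes between F2 and F1, the count of 3 became 0 by the quasi-likelihood test, 1 with its replicate block, and 2 each by DESeq2, by a likelihood-ratio test with replicate block and without a filter on low counts; Cyth4 was the gene lost in the last 2 (adjusted p = 0.0137 and 0.0151 by edgeR). For the families, 6 in F1 and 2 in F2 became 2 and 1 by the quasi-likelihood test, with or without the replicate block, 11 and 6 at a threshold of 0.05, and 1 in F2 without a filter on low counts. For the neighbours, 11 in F1 and 7 in F2 became 7 and 4 by the quasi-likelihood test, 6 and 1 with the replicate block, 7 in F1 by DESeq2, and 17 and 12 at a threshold of 0.05. The cause of these changes was not tested.

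Leaving out each library gave 988 to 2043 genes in F1, 703 to 2585 in F2 and 52 to 223 between F2 and F1. The families ranged from 2 to 6 in F1 and 1 to 2 in F2, and the neighbours from 6 to 14 in F1 and 0 to 9 in F2. The lowest counts came without WT replicate 1 (F1: all genes 988, neighbours 6), without F2 replicate 1 (F2: all genes 703) and without F2 replicate 2 (F2: neighbours 0). Between F2 and F1, 2 to 3 of the 10 genes were called. Cyth4 lost its call without F1 replicate 2, F2 replicate 1 or F2 replicate 2 (adjusted p = 0.093, 0.728 and 0.0196 by edgeR), and Tpm3-rs7 without F1 replicate 1 (adjusted p = 0.107). With 2 libraries a group, the number of libraries limits the precision, and few counts limit it for Lefty1, Serpina3m and Gm15797 and in part for Gm5619 in WT (7 and 9 counts) and 1700001K19Rik in F1 (8 and 6 counts), whose F1 value was -4.01 with a prior count of 2.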

Other observations

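Genes outside the set with the most similar pattern were taken as the 3 rises and 3 falls with the largest smaller-of-both log2 fold change in genes averaging 50 counts or more without overlap with WT. The likeness is one of size over 6 libraries and says nothing of shared function. The rises were Cdhr1, a cadherin-related gene of photoreceptors, Fgf1, a fibroblast growth factor gene, and a transcript without a gene name. Fgf1 had 3.15 and 3.87 CPM in WT, 10.4 and 20.9 in F1, and 12.1 ± 1.51 (SD, n = 2) in F2. The falls were 4933426D04Rik, Tmod4, a tropomodulin gene of muscle, and Shkbp1. Shkbp1 had 66.7 and 38.2 CPM in WT, 15.0 and 9.04 in F1, and 11.6 and 11.9 in F2, and Tmod4 5.59 and 2.75 CPM in WT and 0.712 to 1.12 CPM in the other libraries. In Shkbp1 and Tmod4, as in Tm6sf2, WT replicate 1 was the higher of the WT libraries.

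Between F2 and F1, Cdhr1 differed by -0.94 on the log2 scale (adjusted p = 0.00579 by edgeR), and of the other 5, the transcript without a gene name had -0.92 (adjusted p = 0.015) and the rest had adjusted p of 0.847 or more. Serpina3f, next to Serpina3g, had 7 counts in F1 replicate 1 and 59 in F1 replicate 2, against 6 and 7 in WT.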
